A study of Danio rerio with 6 samples.

Results

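The transcripts of the zebrafish mitochondrial chromosome were examined in wild-type (WT) and *zrsr2* mutant embryos. The members were all rows of the transcript tables placed on chromosome MT of the GRCz11 assembly, which gave 38 of 77316 transcripts, 37 of 31794 named genes and 30 of 35962 loci, a locus being the set of transcripts that StringTie placed under 1 gene identifier. They comprised 13 protein-coding genes, 2 rRNA genes, 22 tRNA genes and 1 transcript with no gene name. All had a single exon, 28 lay on the plus strand and 10 on the minus strand. The tRNA genes carry only accession-like identifiers in the tables, so they are called here by the RefSeq gene names (assembly GRCz12tu): 27 of the 37 named members matched a RefSeq gene by both ends and 10 by the start alone.

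Total RNA was sequenced from pools of 10 decapitated bodies of strain Tab5 at 3 days post fertilization (dpf), with 3 pools in each group. The WT pools (clutches 12, 13 and 15) came from in-crosses of WT adults that were siblings of the mutant carriers. The mutant pools (clutches 3, 4 and 7) held homozygous embryos, genotype zrsr2hg129/h129 in the labels, from in-crosses of heterozygous adults, and each embryo was genotyped from its head. The allele is a CRISPR/Cas9 frameshift deletion in *zrsr2*, which encodes a splicing factor of the minor spliceosome, the line carries this allele alone, and the mothers of the mutants were heterozygous. The genotypes have no clutch in common, and RNA integrity was lower in each mutant pool than in any WT pool, so that effects of genotype cannot be told apart from those of clutch, type of cross or RNA integrity.

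Mitochondrial DNA encodes subunits of the respiratory chain and of ATP synthase, and the rRNAs and tRNAs of the mitochondrial ribosome's own translation system. In vertebrates, a dedicated polymerase copies both strands into long precursors that cover several genes, and cutting out the tRNAs that lie between them frees most of the mRNAs and rRNAs. The transcripts have no introns, and muscle, heart, liver and ionocytes are rich in mitochondria. The question put to these genes was whether their levels, or their proportions, differed between genotypes.

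The libraries held 7.50 to 9.26 gigabases of transcript coverage each. By name, *zrsr2* was at 1.38, 1.50 and 1.39 FPKM (fragments scaled to transcript length and library depth) for WT and at 0.513, 0.793 and 1.06 FPKM for mutants. The mutant values were all lower, although the change of -0.62 on the log2 scale (SE 0.23) did not pass the test (adjusted p = 0.173, limma). Over 10 trunk muscle markers the summed level was 42313 to 43765 FPKM in WT and 48209 to 56848 FPKM in mutants, and over 4 liver markers it was 1033 to 1407 and 434 to 564 FPKM. The 6 ionocyte markers summed to 55.0 to 67.0 and 45.7 to 48.4 FPKM, whereas 5 heart markers (20.6 to 58.1 and 33.4 to 47.2) and 6 red blood cell markers (2791 to 4947 and 2011 to 3808) overlapped. The photoreceptor genes *opn1sw1* and *opn1lw2* were listed at 0 in every pool and the 10 head markers summed to at most 1.20 FPKM. The muscle, liver and ionocyte sums, taken with no scaling between pools, did not overlap between genotypes. By gene and after scaling, 30.6% of all genes tested did not overlap. The factors by which genes were later divided were 1.07 to 1.12 in WT and 0.860 to 0.982 in mutants. Such scaling lowers WT sums and raises mutant sums. After it the liver gap is smaller, and the ionocyte sums of the genotypes overlap. None of the 10 muscle markers was called by itself. The highest of them, *actc1b* and *mylpfa*, overlapped between genotypes, while *ckmb* and *acta1b* did not. The ionocyte sum rested on *ca2*, since the other 5 markers summed to 42.7 to 51.3 in WT and 42.6 to 44.7 FPKM in mutants. After scaling, the log2 fold change was -2.15 for *ca2* and above 0 for each of the other 5 (0.06 for *atp6v1aa* to 0.62 for *foxi3b*). None of these 6 was called. The liver sum rested on *fabp10a* and *tfa*, since *cp* and *ambp* together were at 108 to 130 in WT and 83.5 to 109 FPKM in mutants. Of the 4 liver markers, *fabp10a* was called lower in mutants (log2 fold change -3.225, adjusted p = 0.0158, limma), beside 2.79% of all genes tested. The markers *tfa* (-0.97, adjusted p = 0.0588), *cp* (0.08) and *ambp* (-0.15) were not called. The part of these markers in the mitochondrial levels was not tested. In such bulk samples fewer cells of a type and less RNA per cell cannot be told apart.

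Mitochondrial transcripts took 2.04% of all bases in WT clutch 12, 3.39% in clutch 13 and 1.74% in clutch 15. For mutants the share was 1.60% in clutch 3, 4.57% in clutch 4 and 3.76% in clutch 7. Values of single pools are given in this order of clutches throughout. The lowest pool and the highest pool were both mutants. WT pools averaged 2.39% ± 0.879 (SD, n = 3) against 3.31% ± 1.54 for the mutants (SD, n = 3). The difference of 0.919 percentage points was larger than the WT SD and smaller than the mutant SD. The test did not tell the genotypes apart (two-sided exact permutation test, p = 0.5, where 3 pools against 3 cannot go below 0.1). The share varied 1.95-fold among the WT pools and 2.86-fold among the mutants. Mutant clutch 3 had the highest sum of muscle markers and the lowest mitochondrial share. WT clutch 13 and mutant clutches 4 and 7 were the 3 highest pools for 20 of the 34 members with a mean of at least 0.1 FPKM, including 9 of the 13 protein-coding genes.

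**Figure D1:**
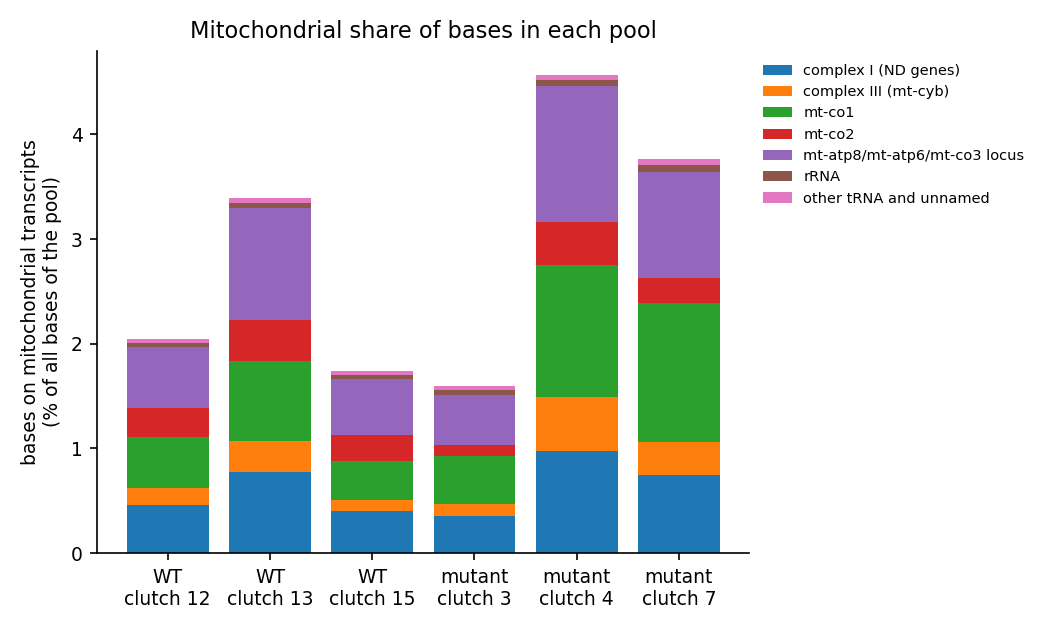
Percent of all bases of each pool (vertical axis, coverage times length over all transcripts) on mitochondrial transcripts, with a stacked bar for each of the 3 WT and 3 mutant pools and a colour for each gene group. The bars run from 1.60% in mutant clutch 3 to 4.57% in mutant clutch 4, and the WT bars lie between them.

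Within the chromosome, the mean proportions of the RNA classes were close in the 2 genotypes. Protein-coding genes held 96.6% ± 0.725 of the mitochondrial bases in WT and 96.4% ± 1.49 in mutants, rRNA 1.70% ± 0.405 and 1.97% ± 0.671, tRNA 1.44% ± 0.317 and 1.40% ± 0.852, and the unnamed transcript 0.248% ± 0.0400 and 0.266% ± 0.0404 (SD, n = 3 each). The plus strand held 98.5% ± 0.318 and 98.5% ± 0.770. Whether the counting used strand is not given in the sources used here, so strand here is that of the gene model. For none of these 6 shares, the minus strand included, did the test tell the genotypes apart (exact permutation p from 0.5 to 1, adjusted p = 1 for each). Most of the tRNA share was *trnS1*, and with it left out the tRNA share was 0.181% ± 0.0179 in WT and 0.209% ± 0.0589 in mutants. The rRNA share is that of a library kit of a kind that removes ribosomal RNA, and how much mitochondrial rRNA it removed from each pool was not tested.

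Among the 30 loci, the locus of *mt-atp8*, *mt-atp6* and *mt-co3* held the largest mean share of mitochondrial bases, 27.0% to 31.6% over the 6 pools. The locus share of *mt-co1*, which encodes the catalytic subunit of cytochrome c oxidase (complex IV), was 24.2%, 22.4% and 21.6% in WT and 28.7%, 27.6% and 35.3% in mutants. That of *mt-co2*, the subunit that receives electrons from cytochrome c, was 13.2%, 11.6% and 14.0% in WT and 6.74%, 9.11% and 6.29% in mutants. In neither gene did the genotypes overlap, and the directions were opposite. The ratio of *mt-co1* to *mt-co2* FPKM was 0.819, 0.859 and 0.687 in WT and 1.90, 1.35 and 2.50 in mutants, below 1 in every WT pool and above 1 in every mutant pool. Of the 30 locus shares, 6 were higher in every mutant pool (*mt-co1*, *trnK*, *trnA*, *trnQ*, *trnT* and *trnP*) and 2 were lower (*mt-co2* and *mt-nd5*). The shares of *trnA*, *trnQ*, *trnT* and *trnP* were near the floor, with means over the pools of 0.00033% (*trnP*) to 0.00064% (*trnA*). Both *trnT* and *trnP* were listed at 0 in WT clutch 12. No such count was made for shares of other loci, and levels did not overlap in 32.8% of all loci tested. The shares of a pool add up to a fixed whole, so a higher share of *mt-co1* lowers the summed share of the other loci. The ratio of *mt-co1* to *mt-co2* does not depend on that whole. The loci named here were picked after their values were seen and are given as a description with no test.

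By gene, none of the mitochondrial genes was called as changed. The test was limma on log2(FPKM + 0.1) after median-of-ratios scaling between pools, over genes with a mean of at least 0.1 FPKM, and a call needed a Benjamini-Hochberg adjusted p below 0.05 and a log2 fold change of at least 1 in size. Of the 37 genes 33 were tested (all but 4 tRNA genes) and 0 were called, against 2.79% of all 19978 genes tested. At an unadjusted p below 0.05 there were 14 of the 33, and 4599 of all genes (23%). After scaling, the genotypes did not overlap in 10 of the 33 genes (30.3%), beside 30.6% of all genes, a share near the background. In 9 of these 10 the mutants were higher (*mt-rnr1*, *mt-rnr2*, *mt-nd4*, *trnI*, *trnQ*, *trnM*, *trnN*, *trnC* and *trnK*) and in 1 lower (*trnY*). Before scaling, *mt-rnr2*, *mt-nd4*, *trnM*, *trnN* and *trnK* overlapped between genotypes. For *mt-nd4* by name, mutant clutch 3 was at 0.0351 FPKM and the WT pools at 0.0259 to 0.0373 FPKM, all near the floor. Genes with every mutant pool above WT after scaling were 27.3% of the 33, beside 14.6% of all genes tested. The fold changes lay above 0 in 31 of the 33 genes, with a median of 0.80 on the log2 scale beside 0.01 over all genes tested. Many members were high or low in the same pools, so counts of direction over them do not stand for independent changes. Without scaling, both medians moved down by a like amount, to 0.58 and -0.19. By transcript, 0 of the 34 tested were called, against 1.27% of all transcripts tested, and 10 had an unadjusted p below 0.05, as did 7043 of all 43672 transcripts tested (16.1%).

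By locus, 1 of 30 was called, against 4.07% of all 25349 loci tested. This locus was *mt-rnr1*. After scaling, genotypes did not overlap in 8 of the 30 loci (26.7%), beside 32.8% of all loci, also after scaling. Mutants were higher in all 8, and every mutant pool was above WT in 15.9% of all loci tested. Before scaling, levels of *mt-rnr2*, *trnM*, *trnN* and *trnK* overlapped, while those of *mt-rnr1*, *trnI*, *trnQ* and *trnC* with *trnY* did not. The unadjusted p was below 0.05 in 12 of the 30 loci and in 6723 of all loci tested (26.5%). Of the 30 loci 29 had a fold change above 0, with a median of 0.66 beside 0.02 over all loci. As with the genes, this count does not stand for independent changes. The median over all 10 loci with a protein-coding gene was 0.60, the values ran from -0.25 to 0.99, and none of the 10 was called (adjusted p from 0.193 to 0.771, limma) or separated the genotypes.

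**Figure D2:**
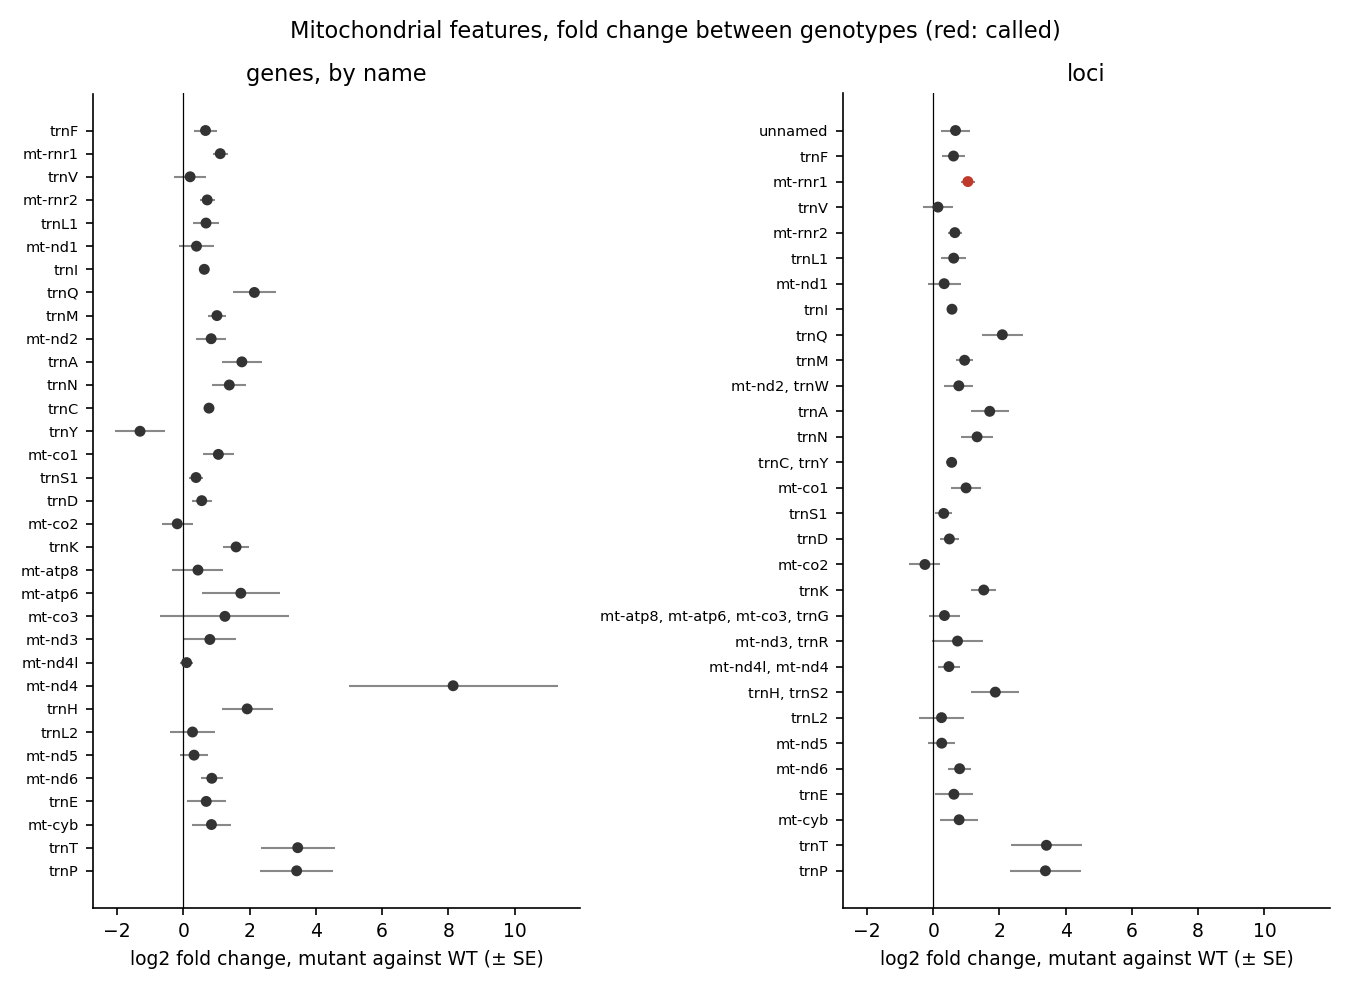
Log2 fold change, mutant against WT (horizontal axis, with its standard error as the bar), for the 33 genes tested by name (left) and the 30 loci (right), in order along the chromosome, with called features in red. Of the points 31 of 33 and 29 of 30 lie to the right of 0, *mt-rnr1* among the loci is the only red point, and *mt-nd4* with 8.15 by name stands apart on the left, where its locus on the right is at 0.47.

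The rRNA gene *mt-rnr1* was called as a locus and was the nearest to a call by name. For *mt-rnr1* (MT:1020-1971, plus strand), the small subunit rRNA, the levels were 87.7, 78.7 and 68.5 FPKM in WT and 120, 123 and 204 FPKM in mutants. Every mutant pool was above every WT pool. The library kit is of a kind that removes ribosomal RNA, so the levels of both rRNA genes also depend on how much was removed. That removal was not tested. The log2 fold change was 1.05 (SE 0.22, adjusted p = 0.0394, limma) as a locus and 1.11 (SE 0.23, adjusted p = 0.0527) by name, the same transcript being scaled and adjusted with other features in each. Over the 13 alternatives the adjusted p of the locus ran from 0.0191 to 0.117. The call was lost without any one of the 3 WT pools, without mutant clutch 3 or without mutant clutch 7 (adjusted p from 0.0543 to 0.117, limma). With a pool left out its fold change ran from 0.83 to 1.20. Calls over all loci fell from 4.07% to between 1.14% and 2.32% without a WT pool or mutant clutch 7, and were 5.5% without mutant clutch 3. The *mt-rnr1* call was also lost with no filter on low levels (adjusted p = 0.0506) and with no scaling between pools (adjusted p = 0.0622). For *mt-rnr2* (MT:2043-3725), the large subunit rRNA, the levels were 114, 176 and 143 FPKM in WT and 144, 242 and 231 FPKM in mutants. These overlap before scaling and not after it, with a log2 fold change of 0.72 by name (SE 0.22, adjusted p = 0.123). The ratio of *mt-rnr1* to *mt-rnr2* FPKM was 0.768, 0.447 and 0.480 in WT and 0.835, 0.508 and 0.883 in mutants, which overlap.

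The ND genes encode the mitochondrial subunits of complex I, which passes electrons from NADH to ubiquinone. The level of *mt-nd1* (MT:3803-4777) was 1103, 2102 and 802 FPKM in WT and 744, 2637 and 1361 FPKM in mutants. That of *mt-nd2* (MT:4993-6107) was 799, 1527 and 554 FPKM in WT and 791, 1937 and 1590 FPKM in mutants. The genotypes overlapped in both, and the pools of clutches 13 and 4 were the highest of their groups. The level of *mt-nd3* was 149, 263 and 137 FPKM in WT and 64.0, 545 and 509 FPKM in mutants, and that of *mt-nd5* (MT:12897-15232) was 178, 270 and 132 FPKM in WT and 101, 270 and 286 FPKM in mutants. Mutant clutch 3 was the lowest of the 6 pools in each. The log2 fold changes by name were 0.40 for *mt-nd1* (SE 0.51), 0.84 for *mt-nd2* (SE 0.45), 0.80 for *mt-nd3* (SE 0.79) and 0.32 for *mt-nd5* (SE 0.43), with adjusted p from limma of 0.679, 0.319, 0.582 and 0.687.

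The only protein-coding gene on the minus strand was *mt-nd6* (MT:14714-15232), which encodes a membrane subunit of complex I and whose whole model lies opposite *mt-nd5*. Its level was 1.23, 0.981 and 2.08 FPKM in WT and 3.02, 1.94 and 1.80 FPKM in mutants, and it was highest in mutant clutch 3, the pool with the lowest *mt-nd5*. Per length, *mt-nd5* was between 33.3 and 275 times higher than *mt-nd6* in the same pool. The log2 fold change of *mt-nd6* was 0.86 (SE 0.34, adjusted p = 0.199, limma). The library kit marks strand, but whether the counting used it is not given in the sources used here. Reads of *mt-nd5* and *mt-nd6* may thus not be told apart, and the same holds for *trnI* and *trnQ*. Other minus-strand members, *trnS1* among them, have the same limit, since both strands are copied into long precursors.

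The largest fold change by name belonged to *mt-nd4*, a proton-pumping subunit of complex I, and it did not hold for its locus. The model of *mt-nd4* (MT:11299-12679) lies wholly inside that of *mt-nd4l* (MT:11009-12679), also a membrane subunit of complex I, so that 1381 bases, 82.6% of *mt-nd4l*, belong to both. By name *mt-nd4* was listed at 0.0373, 0.0330 and 0.0259 FPKM in WT and at 0.0351, 684 and 485 FPKM in mutants, while *mt-nd4l* was at 800, 1158 and 912 FPKM in WT and 661, 1020 and 967 FPKM in mutants. Mutant clutches 4 and 7 were thus the only pools in which *mt-nd4* was given a sizeable level by name, and mutant clutch 3 was like the WT pools. In those 2 pools *mt-nd4* held 35.7% and 29.3% of the bases of the locus, and in the other 4 at most 0.00439%. The log2 fold change was 8.15 for *mt-nd4* (SE 3.16, adjusted p = 0.193, limma), 0.10 for *mt-nd4l* (SE 0.21, adjusted p = 0.807) and 0.47 for the locus (SE 0.33, adjusted p = 0.403). Each gene was also given the level of all plus-strand models over its own interval. On that measure *mt-nd4* was at 800, 1158 and 912 FPKM in WT and 662, 1704 and 1452 FPKM in mutants. Its fold change was then 0.54 (SE 0.34, adjusted p = 0.384, limma). The near-0 levels by name thus describe how reads were divided between the 2 models. Without mutant clutch 3, *mt-nd4* by name was called (12.19, adjusted p = 9.23e-05).

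**Figure D3:**
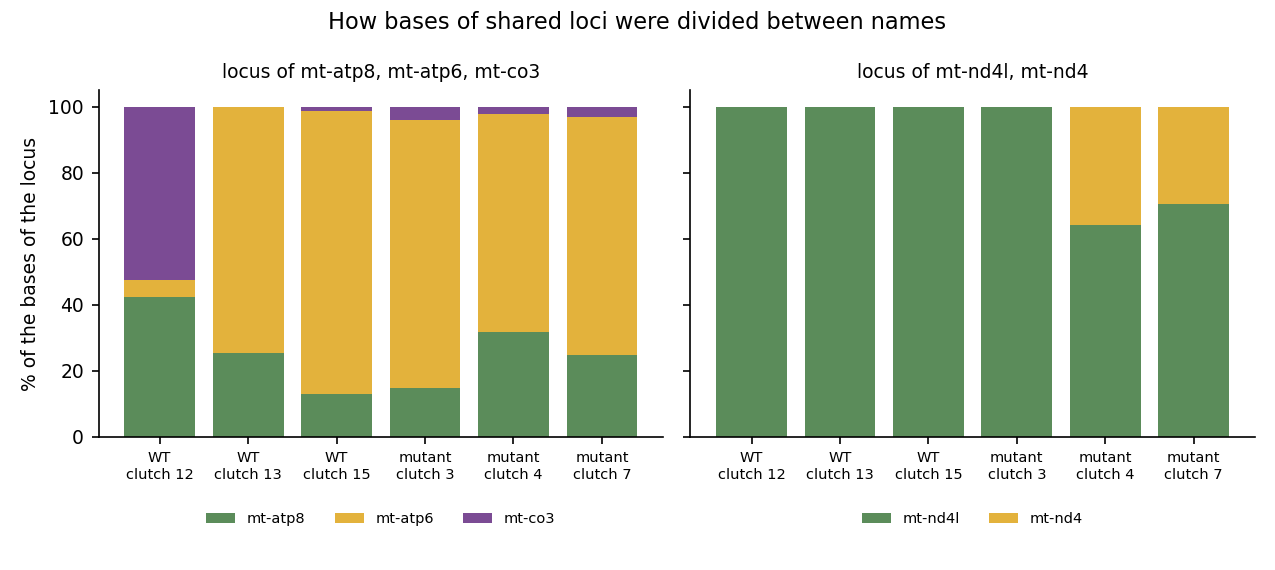
Percent of the bases of a locus (vertical axis) given to each gene name, in each of the 3 WT and 3 mutant pools, for the locus of *mt-atp8*, *mt-atp6* and *mt-co3* (left) and that of *mt-nd4l* and *mt-nd4* (right). On the left *mt-co3* has 52.6% in WT clutch 12 and at most 3.81% elsewhere, and on the right *mt-nd4* has 35.7% and 29.3% in mutant clutches 4 and 7 and almost none in the others.

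Cytochrome b (*mt-cyb*, MT:15308-16448), the mitochondrially encoded subunit of complex III, was at 1138, 2155 and 766 FPKM in WT and 809, 3752 and 2272 FPKM in mutants. The groups overlapped, and the lowest mutant pool lay among the WT pools. The log2 fold change was 0.85 (SE 0.60, adjusted p = 0.440, limma). Of complex IV, *mt-co1* (MT:6425-7975) was at 2611, 4048 and 1997 FPKM in WT and 2446, 6838 and 7154 FPKM in mutants, and *mt-co2* (MT:8130-8820) at 3186, 4713 and 2906 FPKM in WT and 1291, 5069 and 2859 FPKM in mutants. Levels of both genes overlapped between genotypes, unlike their shares of the mitochondrial bases. The log2 fold change of *mt-co1* was 1.06 (SE 0.46, adjusted p = 0.232) and that of *mt-co2* was -0.18 (SE 0.47, adjusted p = 0.844), the only value below 0 among the 13 protein-coding genes. It turned to above 0 without WT clutch 13 or without mutant clutch 3.

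The remaining gene of complex IV, *mt-co3*, shares its locus (MT:8894-10589) with *mt-atp8* and *mt-atp6*, which encode membrane subunits of ATP synthase. The models overlap: *mt-atp8* and *mt-atp6* have 683 bases in common, and *mt-atp6* and *mt-co3* have 785. The level of *mt-co3* was 2973, 9.04 and 63.7 FPKM in WT and 176, 271 and 311 FPKM in mutants, that of *mt-atp6* was 163, 4493 and 2624 FPKM in WT and 2191, 4895 and 4163 FPKM in mutants, and that of *mt-atp8* was 2441, 2677 and 684 FPKM in WT and 688, 4102 and 2491 FPKM in mutants. WT clutch 12 stands apart, with *mt-co3* at 52.6% of the bases of the locus and *mt-atp6* at 4.95%, where the other 5 pools had 0.0873% to 3.81% and 66.1% to 86.0%. The sum over the locus did not show this: it was 5577, 7179 and 3372 FPKM in WT and 3055, 9269 and 6966 FPKM in mutants, which overlap. The log2 fold changes by name were 1.26 for *mt-co3* (SE 1.95), 1.74 for *mt-atp6* (SE 1.19) and 0.44 for *mt-atp8* (SE 0.77), with adjusted p from limma of 0.733, 0.428 and 0.765. For the whole locus the change was 0.34 (SE 0.47, adjusted p = 0.686). Given the level of all plus-strand models over its interval, *mt-co3* had a change of 0.37 (SE 0.33, adjusted p = 0.546). The fold change of *mt-co3* by name was -0.61 without WT clutch 13, and that of *mt-atp8* was below 0 without WT clutch 15 or without mutant clutch 4.

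**Figure D4:**
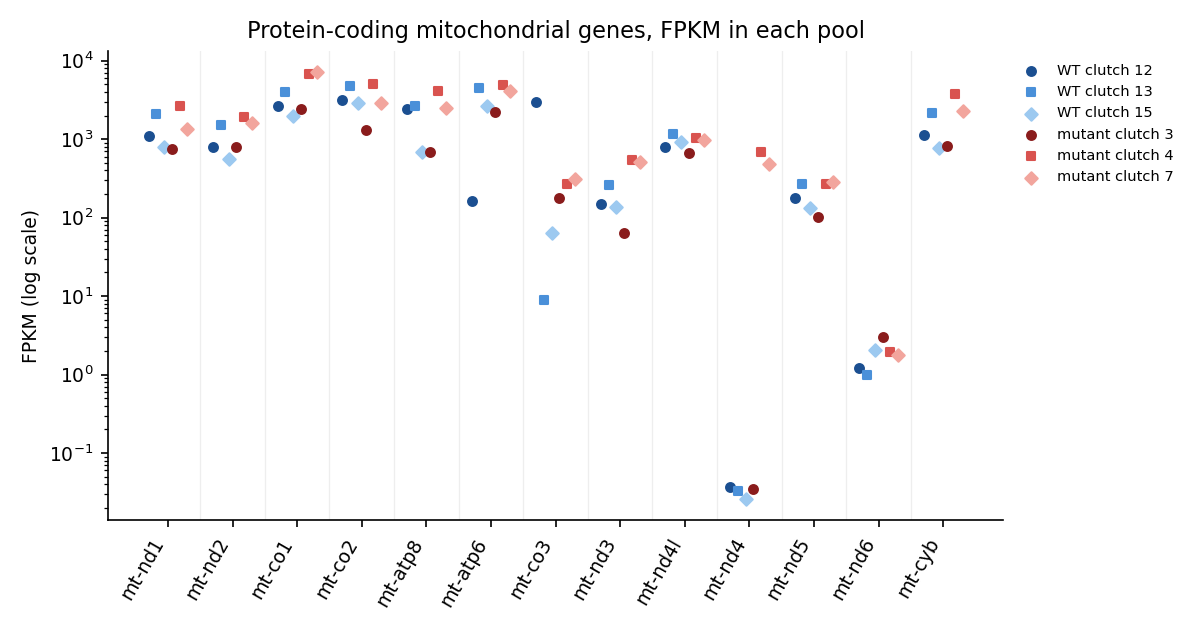
FPKM on a log scale (vertical axis) of the 13 protein-coding mitochondrial genes in order along the chromosome, with a point for each of the 3 WT (blue) and 3 mutant (red) pools. Most genes lie between 64.0 and 7154 FPKM with the genotypes interleaved, *mt-nd6* is at 0.981 to 3.02, and the points of *mt-co3* and *mt-nd4* spread over orders of magnitude.

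The 6 protein-coding genes that were alone in their locus varied between 2.85-fold (*mt-nd5*) and 4.90-fold (*mt-cyb*) over the 6 pools. Among the 13 genes by name the ratio of highest to lowest pool ran from 1.75 (*mt-nd4l*) to 26447 (*mt-nd4*). Of the 13, 12 had a fold change above 0, and the median change was 0.84. An unadjusted p below 0.05 was found in 2 (*mt-nd4* and *mt-nd6*), beside 23% of all genes tested. Of the 13, 0 were called, beside 2.79% of all genes tested.

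Of the 22 tRNA genes, 18 passed the minimum of 0.1 FPKM, 17 of them with a fold change above 0. Their median change was 0.73 on the log2 scale, and 0 were called, beside 2.79% of all genes tested. Mature tRNAs are short and heavily modified, and libraries of this kind capture them poorly. The highest was the serine tRNA gene *trnS1* (MT:7976-8046, minus strand), at 3066, 3730 and 3124 FPKM in WT and 3912, 3167 and 4024 FPKM in mutants, per length within the range of *mt-co2* (1291 to 5069 FPKM). It varied 1.31-fold over the pools where the mitochondrial share varied 2.86-fold, and the groups overlapped (0.38, SE 0.22, adjusted p = 0.346, limma). If the counting ignored strand, its level may include reads of plus-strand RNA. The next were the leucine tRNA gene *trnL1*, at 74.9, 149 and 66.2 FPKM in WT and 78.4, 196 and 126 FPKM in mutants, and the isoleucine tRNA gene *trnI* (MT:4781-4922), at 76.0, 108 and 83.7 FPKM in WT and 113, 124 and 114 FPKM in mutants. In *trnL1* the genotypes overlapped, and in *trnI* every mutant pool was higher, with a change of 0.63 (SE 0.16, adjusted p = 0.0766). The model of *trnI* is 142 bases long and holds the whole of *trnQ* on the other strand.

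Lysine, cysteine and methionine tRNA genes, named here after their values were seen, came near a call by name. For *trnK* (MT:8821-8893), which lies between *mt-co2* and *mt-atp8*, the levels were 11.3, 19.5 and 12.7 FPKM in WT and 19.3, 59.3 and 43.1 FPKM in mutants. WT clutch 13 and mutant clutch 3 were close, and after scaling the groups did not overlap (1.59, SE 0.39, adjusted p = 0.0765, limma). The locus of *trnK* was called with loci of at least 1 FPKM on average (adjusted p = 0.0477), with bases in place of FPKM (1.45, adjusted p = 0.0419) and without mutant clutch 3 (1.92, adjusted p = 0.0191). For *trnC* (MT:6283-6423, minus strand) the levels were 6.39, 6.92 and 7.90 FPKM in WT and 11.3, 9.07 and 11.0 FPKM in mutants, all above WT (0.78, SE 0.16, adjusted p = 0.0538), a change under the fold limit. Its locus, which also holds *trnY*, changed by 0.56 (SE 0.18, adjusted p = 0.104, limma). Of the bases of that locus, *trnY* was given 14.4% in WT clutch 13 and at most 2.24% in the other pools. For *trnM* the levels were 49.1, 90.7 and 54.7 FPKM in WT and 80.0, 130 and 121 FPKM in mutants, and the change was 1.01 (SE 0.27, adjusted p = 0.0887).

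The tyrosine tRNA gene *trnY* lies wholly inside the model of *trnC* and was the only tRNA gene with a change below 0. By name it was at 0.291, 2.31 and 0.304 FPKM in WT and 0.228, 0.212 and 0.0729 FPKM in mutants (-1.31, SE 0.74, adjusted p = 0.343, limma). WT clutch 13 was far above the rest. Given the level of all minus-strand models over its interval, its change was 0.62 (SE 0.18, adjusted p = 0.106), so its direction depends on how overlapping models share reads. At the end of the coding region, *trnT* was at 0, 0.714 and 0.0122 FPKM in WT and 0.372, 3.94 and 4.76 FPKM in mutants, and its neighbour on the other strand, *trnP*, at 0, 0.714 and 0 FPKM in WT and 0.367, 4.22 and 3.77 FPKM in mutants. WT clutch 13 was above mutant clutch 3 in both, and the changes of 3.45 (SE 1.11, adjusted p = 0.137) and 3.42 (SE 1.11, adjusted p = 0.138), which depend on the pseudocount where a pool is listed at 0, were not called. The other tested tRNA genes not yet described had means over the pools from 0.125 FPKM (*trnL2*) to 86.5 FPKM (*trnE*).

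The lowest tRNA genes above 0 each lay inside a longer model on the same strand. The arginine tRNA gene *trnR* lies in *mt-nd3*, the glycine tRNA gene *trnG* in *mt-co3* and the serine tRNA gene *trnS2* in *trnH*, and the mean levels over the pools were 0.00198, 0.00441 and 0.0178 FPKM. None of these 3 was tested. The tryptophan tRNA gene *trnW*, inside *mt-nd2*, was listed at 0 FPKM in every pool. These values describe how reads were divided between overlapping models and set no level for the tRNAs.

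**Figure D5:**
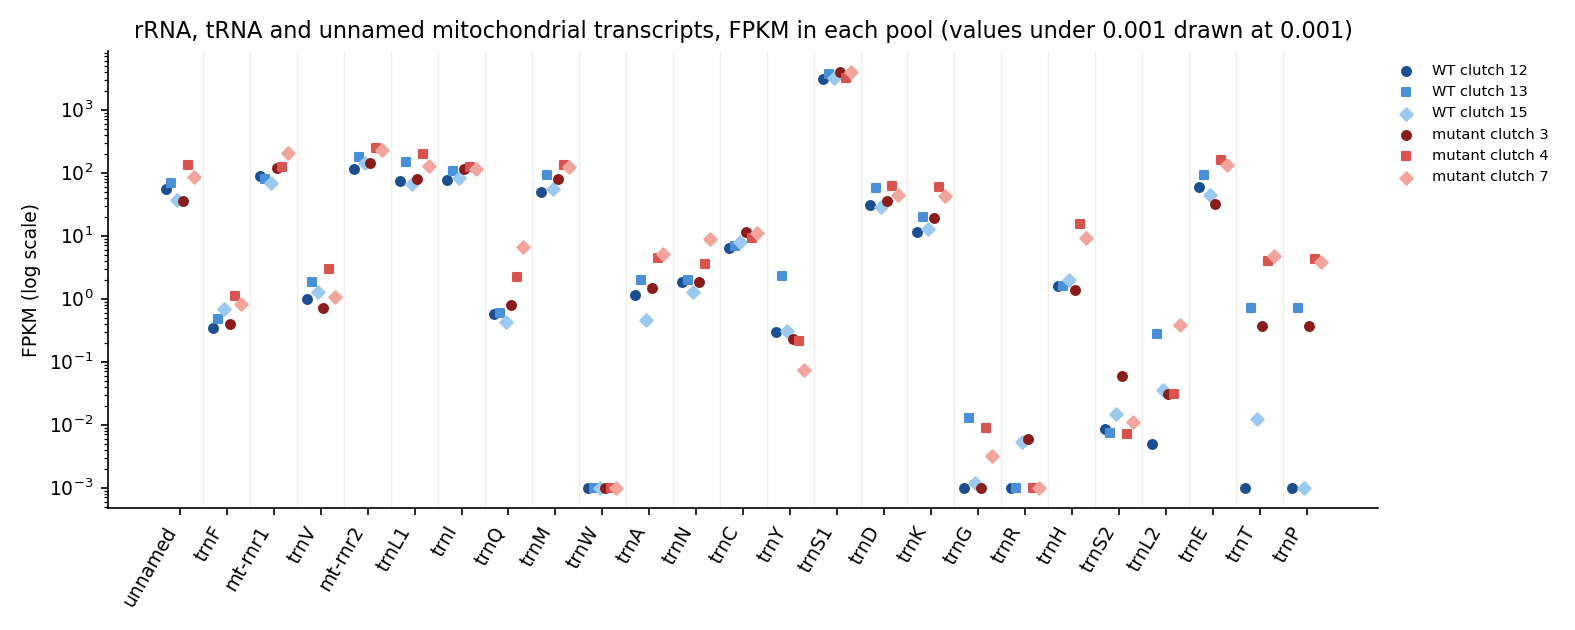
FPKM on a log scale (vertical axis) of the unnamed transcript, the 2 rRNA genes and the 22 tRNA genes in order along the chromosome, with a point for each of the 3 WT (blue) and 3 mutant (red) pools and values under 0.001 drawn at 0.001. The 6 points of *trnS1* lie between 3066 and 4024 FPKM, the red points of *mt-rnr1*, *trnI*, *trnC* and *trnQ* lie above the blue ones, and *trnW*, *trnG*, *trnR* and *trnS2* are at the bottom.

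The unnamed transcript covers MT:1-898 on the minus strand, lies 52 bases before *trnF* and overlaps no annotated gene. In vertebrates this stretch next to the phenylalanine tRNA is the non-coding control region, where transcription of both strands begins. Its level was 54.7, 68.4 and 36.8 FPKM in WT and 35.0, 133 and 86.3 FPKM in mutants. The groups overlapped, with mutant clutches 4 and 7 highest and mutant clutch 3 lowest. As a locus its change was 0.67 (SE 0.44, adjusted p = 0.376, limma). Its share of the mitochondrial bases was steadier than its level, 0.219% to 0.312% over the 6 pools.

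Nuclear genes that maintain mitochondrial DNA and RNA were taken from a list of 58 names, of which 49 were in the tables and 48 were tested. Fold changes were above 0 in 23 and below 0 in 25, with a median of -0.01, and 1 gene was called, lower in mutants, beside the 2.79% of all genes. The genotypes did not overlap in 17 of the 48 and 9 had an unadjusted p below 0.05, beside 30.6% and 23% of all genes tested. By role, 0 of 12 tested genes of replication and upkeep, 0 of 7 of transcription, 0 of 17 of RNA processing and decay and 1 of 13 of rRNA and tRNA modification were called, with *twnk*, the replicative helicase, in both the first and the third of these groups. The polymerase gene *polrmt* was at 2.55, 2.85 and 2.61 FPKM in WT and 1.87, 2.10 and 2.05 FPKM in mutants (-0.18, SE 0.12, adjusted p = 0.426, limma). The DNA-packaging factor *tfam* (0.01, SE 0.12, adjusted p = 0.968) and the mRNA-stabilising factor *lrpprc* (-0.15, SE 0.12, adjusted p = 0.502) were not called, nor was the tRNA 3' end nuclease gene *elac2* (0.12, SE 0.14, adjusted p = 0.642).

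The called gene was *trit1*, which encodes the enzyme that adds an isopentenyl group to certain cytosolic and mitochondrial tRNAs. Its named transcripts summed to 1.25, 1.53 and 0.962 FPKM in WT and 0.151, 0.112 and 0.215 FPKM in mutants, a change of -2.20 (SE 0.26, adjusted p = 0.0157, limma). No listed gene was called without WT clutch 12, without WT clutch 13 or with a pseudocount of 1 FPKM. Its whole locus (chromosome 19, 30722767 to 30800082 in GRCz11) went the other way, at 2.75, 3.39 and 3.43 FPKM in WT and 6.86, 6.07 and 6.90 FPKM in mutants, a change of 1.19 (SE 0.15, adjusted p = 0.00986) that was also called. The difference lay in transcripts of the locus that carry no gene name. A transcript of 11 exons and 1900 bases was at 0, 0.00932 and 0.0791 FPKM in WT and 5.20, 2.95 and 3.05 FPKM in mutants, and another of 11 exons and 2241 bases was listed at 0 in all WT pools and at 1.50, 1.79 and 3.58 FPKM in mutants. Another unnamed transcript, of 11 exons and 2331 bases, was at 1.51, 1.85 and 2.39 FPKM in WT and at most 0.0685 FPKM in mutants. Whether *trit1* rose or fell therefore depends on which transcripts are counted. Over whole loci of the listed genes *trit1* was also the only call, and *mto1*, another tRNA modification gene, had a locus change of 0.72 (SE 0.11, adjusted p = 0.0148), under the fold limit. The locus of *mterf2*, a gene of the mitochondrial transcription termination factor family, also lay under it, with a change of -0.88 (SE 0.15, adjusted p = 0.0219). By name the changes were -0.18 for *mterf2* (SE 0.34, adjusted p = 0.787, limma), with genotypes overlapping, and 0.92 for *mto1* (SE 0.26, adjusted p = 0.106). The listed loci of *mterf3* and *fastkd3* also hold other named genes.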

How the data were processed

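RNA-Seq of 6 pools (3 WT, 3 mutant) was read from the transcript tables deposited for each pool. Per the methods of the study, the authors removed low-quality and adapter reads, used HISAT2 (2.2.1.0) for alignment with the GRCz11 assembly and ran StringTie (2.0.3) on an Ensembl annotation. The deposited tables hold, for the same transcripts in each pool, coverage (mean depth per base, a signal) and FPKM as made by the authors with StringTie, and no read counts. Depth in reads is therefore unknown, no counting interval is given, and models that overlap share reads by StringTie's own division. The study's count test could not be run on these units, and limma took its place.

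Gene levels were sums of FPKM over the transcripts with a name, locus levels sums over a gene identifier, and bases were coverage times length. Values were divided by median-of-ratios factors of each level (0.860 to 1.12 for genes), and log2(FPKM + 0.1) was fitted with limma (3.58.1, R 4.3.3, eBayes with trend) on features of mean FPKM at least 0.1. Fold changes are on that log2 scale, which understates low genes. Shares were compared by exact permutation tests (scipy 1.17.1). The fitting code was tested on simulated data. Pools came from separate clutches, so p-values measure the spread between clutches.

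The members and lists were chosen with earlier results of these data known. All protein-coding and rRNA genes were named, of the tRNA genes the 3 highest and the 3 lowest above 0, any unnamed transcript, and of the nuclear list those called; other named genes were picked after their values were seen. Alternatives were other pseudocounts (1, 0.01), filters, scaling, robust eBayes, each pool left out, levels over intervals, and bases in place of FPKM. Chosen after the data were seen were leaving out *trnS1*, whole loci for the nuclear list, and the marker sums without *ca2* or without *fabp10a* and *tfa*.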

Additional observations from a re-analysis of the deposited data

How the results depend on the processing

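No paired analysis was possible because the genotypes share no clutch number. The count of mitochondrial genes called was 0, became 1 with a mean of at least 1 FPKM (*mt-rnr1*, adjusted p = 0.0450, limma) and was 0 to 3 with a pool left out, where the 3 came without mutant clutch 3 (*trnK*, *mt-nd4* and *trnH*). The count of loci called was 1, became 0 with no filter (*mt-rnr1* at adjusted p = 0.0506) or no scaling (0.89, adjusted p = 0.0622), 2 with a mean of at least 1 FPKM or with bases in place of FPKM (*mt-rnr1* and *trnK*), and 0 to 6 with a pool left out, the 6 being *trnQ*, *trnK*, *trnT*, *trnP*, *mt-nd3* with *trnR*, and *trnH* with *trnS2* without mutant clutch 3. In that fit 513 of all genes (2.56%) and 1399 of all loci (5.5%) were called. The count of transcripts called was 0 to 2 with a pool left out, the 2 without mutant clutch 3, where 1.26% of all transcripts were called. With a mean of at least 1 FPKM, 3.51% of all genes and 4.39% of all loci were called. Of all loci, 5.14% were called with bases in place of FPKM, 2.99% with no filter and 4.6% with no scaling. The nuclear list had 1 call (*trit1*), 0 with a pseudocount of 1 and 0 to 1 with a pool left out. It also had 0 with a mean of at least 1 FPKM, a filter that removes *trit1* by name before the test.

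Directions that turned with the setting were these: *mt-nd4l* by name was -0.12 without scaling, *trnY* was 0.62 over its interval, and with *trnS1* left out the differences of the tRNA, plus-strand and minus-strand shares were 0.0279, -0.0240 and 0.0240 percentage points. With a pool left out, the share differences (mutant minus WT) ran from -0.855 to 0.578 for protein-coding, -0.0876 to 0.576 for rRNA, -0.522 to 0.284 for tRNA, -0.00537 to 0.0407 for the unnamed transcript, -0.243 to 0.480 for the plus strand and -0.480 to 0.243 for the minus strand. The total mitochondrial share difference kept its sign, at 0.289 (without mutant clutch 4) to 1.78 (without mutant clutch 3). By name, log2 changes that crossed 0 with a pool left out were those of *mt-nd4l* (-0.00912 to 0.24), *trnL2* (-0.0717 to 0.61), *mt-co2* (-0.61 to 0.28), *mt-co3* (-0.61 to 3.58), *mt-atp8* (-0.21 to 1.12), *trnV* (-0.31 to 0.56) and *mt-nd1* (-0.0255 to 0.79), and by locus those of *trnV* (-0.38 to 0.49), *trnL2* (-0.11 to 0.57), *mt-co2* (-0.68 to 0.20) and *mt-nd1* (-0.0948 to 0.71). Of the changes of single genes and loci, 773 of the recomputed values kept their direction and side of the threshold, 16 turned, 12 gained a call and 7 lost it, and the cause was not tested. Over all genes 558 were called, 282 with a pseudocount of 1, 905 without scaling, and 94, 104, 256 and 217 without WT clutches 12, 13 and 15 and mutant clutch 7, the last 4 with fewer samples. Over all loci 1031 were called, 434 with a pseudocount of 1, and 289, 344, 589 and 504 without the same pools. Over all transcripts 556 were called, 317 with a pseudocount of 1, and 111, 148, 282, 278 and 186 without WT clutches 12, 13 and 15 and mutant clutches 4 and 7.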
